A study of Mus musculus with 6 samples.

Results

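The 10 genes described here encode 9 integrin chains (Itgam, Itgal, Itgb2, Itga4, Itga5, Itga6, Itgav, Itgb1 and Itgb7) and Icam1, an ICAM ligand of integrins. They were taken by gene symbol from a table of 54532 mouse genes. RNA sequencing had been used to measure polyadenylated transcripts in macrophages that, by the labels, were recruited from the mouse peritoneal cavity, with 2000000 cells in a well. Group WT held 3 libraries (replicates 1, 2 and 3) from wild type C57BL/6J cells. Group PGRN KO held 3 libraries (replicates 4, 5 and 6) from progranulin knock out cells of the same labelled strain, which lack the secreted glycoprotein encoded by Grn. All 6 libraries came from cells exposed for 6 hours to live Candida albicans at 1 colony-forming unit per macrophage, and no unexposed cells were analysed here, so the data hold a comparison of genotypes and no response to the fungus. The methods of the study speak of bone marrow-derived macrophages and of another fungal ratio. These accounts could not be reconciled, and the labels were followed. The knockout mice and the wild type mice came from different suppliers by those methods, so a difference of genotype and a difference of colony cannot be told apart.

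Integrins are membrane receptors built from an alpha chain and a beta chain, which reach the cell surface together as a pair. Itgb2 (the beta2 chain, CD18) pairs with Itgal to form LFA-1 and with Itgam to form Mac-1, or complement receptor 3, a phagocytic receptor that also recognises fungal beta-glucan. ICAM-1, the product of Icam1, is bound by both LFA-1 and Mac-1 and is itself an inflammation-inducible surface protein of macrophages and endothelium. Itgb1 (beta1) pairs with many alpha chains, among them Itga5 in the fibronectin receptor, Itga6 in a laminin receptor and Itga4 in a receptor for VCAM-1. Itgav serves receptors for vitronectin and other proteins with an RGD motif, and Itgb7 pairs with Itga4 in a receptor known for the homing of lymphocytes to the gut.

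The libraries held 15996786 to 17551619 fragments assigned to genes. Grn, the targeted gene, stood at 323, 337 and 325 FPKM in WT and at 0.0166, 0 and 0.0167 FPKM in PGRN KO, so that the targeted transcript and the labels matched in all 6 libraries. FPKM divide the fragments of a gene by its length in kilobases and by the size of the library. PGRN KO replicate 6 stood apart from replicates 4 and 5 in a way that followed gene length, as given below for the 10 genes. Macrophage markers were abundant in every library, their summed level being 11588 to 12530 FPKM in WT and 10410 to 14340 FPKM in PGRN KO. The eosinophil genes Epx and Prg2 were listed at 0 throughout. Of 10 neutrophil genes, Ly6g and Elane were also at 0 throughout. The summed level of the list was nevertheless 68.3 to 73.5 FPKM in WT and 42.7 to 43.9 FPKM in PGRN KO. Nearly all of this sum came from S100a8 and Mmp8. S100a8 was significantly lower in PGRN KO (log2 difference -1.07, limma adjusted p = 0.00142). Mmp8 stood at 16.7 to 21.2 FPKM over the 6 libraries. S100a9, Mpo, Camp, Ltf, Ngp and Retnlg each stood at 0.443 FPKM at most in any library. Among other marker lists, the summed level ranged from 4.79 to 6.08 FPKM in WT and from 19.0 to 24.1 FPKM in PGRN KO for 6 B cell genes, and from 2.29 to 3.19 and from 9.72 to 14.0 FPKM for 6 mast cell genes.

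To see how the receptors and Icam1 differed between genotypes, all 8882 genes with a mean of at least 1 FPKM were fitted with limma on the log2(FPKM + 1) scale, which understates the change of low genes. All 10 genes were above that limit. Icam1 and Itgal were significantly lower in PGRN KO, and no chain was significantly higher. Thus 2 of 10 genes (20.0%) passed an adjusted p of 0.05 (limma, Benjamini-Hochberg over all tested genes), against 24.2% of all tested genes. For higher expression in PGRN KO the counts were 0 of 10 genes against 10.4% of all genes, and for lower expression 2 of 10 genes against 13.8%. At an unadjusted limma p under 0.05 there were 5 of the 10 genes, 2 of them higher in PGRN KO (Itgb7 and Itga6). Every gene past the adjusted threshold is also past this limit, so the share over all tested genes is at least 24.2%. That share was not counted, and the 5 of 10 genes cannot be set against it. Limma voom on recovered fragments also called Icam1 and Itgal alone. The libraries of the 2 genotypes did not overlap for 5 of the 10 genes (Itgam, Itgal, Itgav, Itgb7 and Icam1), against 48.8% of all tested genes. The share of members past the threshold thus lay near the share over all genes. The difference was negative for 8 genes and positive for 2, with a median of -0.11 against -0.03 over all tested genes. The labels do not say that libraries came from separate animals or cultures, so the p-values measure the spread between these samples.

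**Figure D1:**
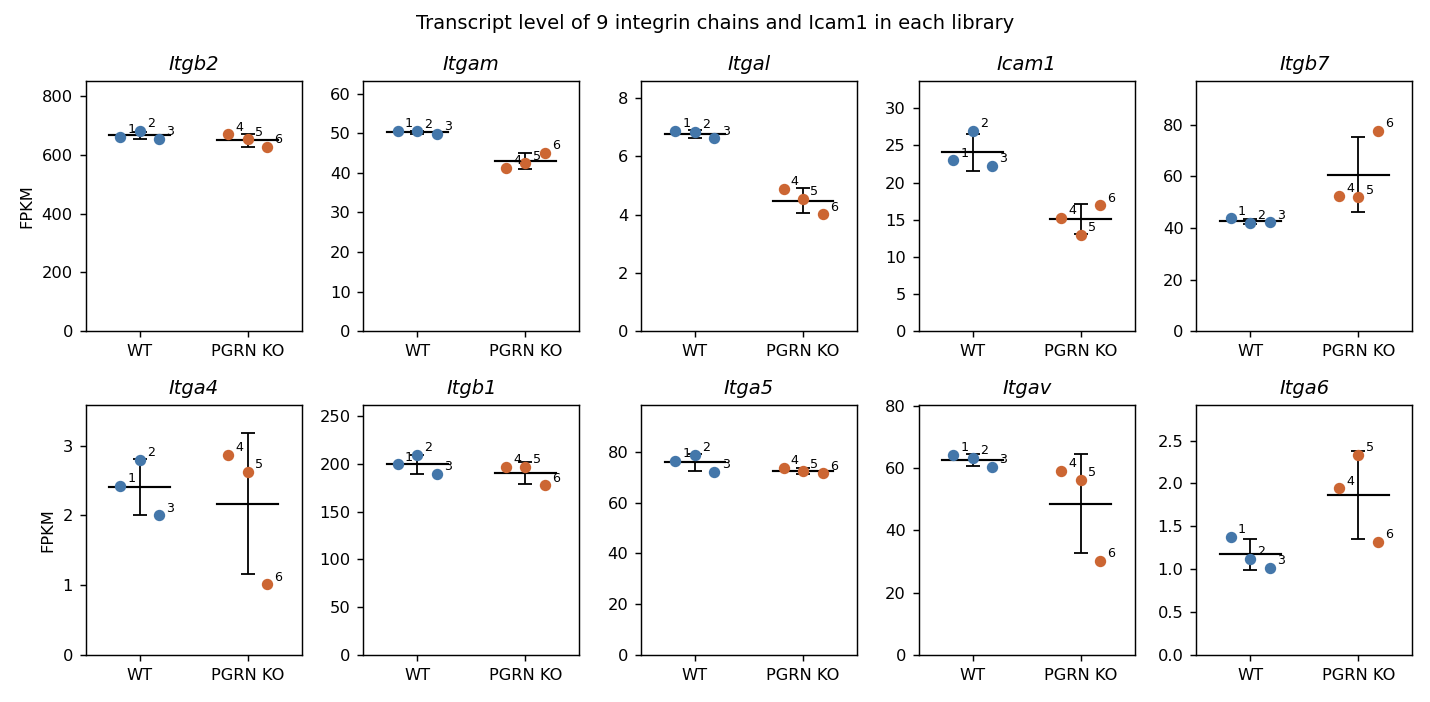
Level of each of the 10 genes in each library, in FPKM on a linear axis starting at 0, with WT in blue and PGRN KO in orange and the replicate number beside each point. Long lines mark group means and error bars the SD (n = 3 each). Icam1 and Itgal lie lower in all PGRN KO libraries than in all WT libraries, whereas Itgb2, Itga5 and Itgb1 overlap.

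Icam1 (ENSMUSG00000037405, chromosome 9, 21015985 to 21028817, plus strand, GRCm38, 7 exons in its principal transcript) was present at 23.0, 26.9 and 22.2 FPKM in the WT libraries, in the order of their numbers. The PGRN KO libraries held 15.3, 13.0 and 17.0 FPKM. Every WT library was thus above every PGRN KO library. The mean fell from 24.1 ± 2.52 to 15.1 ± 2.01 FPKM (SD, n = 3 each), a ratio of WT to PGRN KO of 1.60. On the log2 scale the difference was -0.65 ± 0.13 (SE, 95% interval -0.94 to -0.35, limma adjusted p = 0.0133). The values rest on 1069 to 1749 fragments per library. Of the 31-base words in Icam1 transcripts, 11.2% also occur in Gm47079, which overlaps on the opposite strand and was at 0 fragments in all 6 libraries. The adjusted p was 0.0562 without WT replicate 1 and 0.0605 without WT replicate 2, while it stayed under 0.05 in the other 14 of 16 alternative analyses.

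Itgal (ENSMUSG00000030830, chromosome 7, 127296260 to 127335138, plus strand, 31 exons) encodes the alpha chain of LFA-1, the leukocyte receptor of ICAM-1. Its level was 6.87, 6.84 and 6.62 FPKM in WT and 4.88, 4.54 and 4.02 FPKM in PGRN KO. The groups were separated by a gap wider than the range within either of them. The mean fell from 6.78 ± 0.136 to 4.48 ± 0.434 FPKM, a ratio of WT to PGRN KO of 1.51 and a log2 difference of -0.51 ± 0.09 (SE, 95% interval -0.73 to -0.29, limma adjusted p = 0.0106). Fragments numbered 456 to 785 per library, which makes Itgal one of the more thinly counted chains. The call was lost on a scale on which every library has the same sum of FPKM (TPM scale, adjusted p = 0.0643) and without WT replicate 1 (0.0613) or WT replicate 2 (0.0532). Direction was kept in all 16 alternatives. In bulk RNA, fewer cells that express Itgal and less Itgal per cell cannot be told apart. Dendritic cell markers, of which Ccr7 is the most abundant, had a summed level of 27.3 to 34.6 FPKM in WT and 15.8 to 19.3 FPKM in PGRN KO, with 3 of 4 genes separated and lower. Markers of monocytes and small peritoneal macrophages summed to 485 to 501 FPKM in WT and 292 to 304 FPKM in PGRN KO, with 4 of 6 separated and lower. Fn1 and H2-Ab1 made up most of this sum, while Ccr2 (0.258 to 0.401 FPKM) and Cd226 (at most 0.0491 FPKM) overlapped between genotypes. Markers of large peritoneal macrophages summed to 336 to 357 FPKM in WT and 307 to 335 FPKM in PGRN KO. Cd9 alone, at 269 to 329 FPKM, made up most of this sum. Of these 6 genes, 2 were separated and lower, namely Cd9, which did not pass (limma adjusted p = 0.139), and Timd4, on 0 to 8 fragments. Only 1 gene, Cd5l, was separated and higher, and no other gene of the list passed. Its mean rose from 7.21 ± 0.195 to 22.8 ± 5.77 FPKM (log2 difference 1.51, limma adjusted p = 0.0022). Over all tested genes, 48.8% were separated in either direction. Of these lists, 1 of 4 dendritic cell, 4 of 6 monocyte and 4 of 6 large peritoneal macrophage genes were above the limit for testing. The part of these lists, or of the neutrophil list given above, in the levels of Itgal, Itgam or Icam1 was not tested.

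Itgam (ENSMUSG00000030786, chromosome 7, 128062640 to 128118491, plus strand, 30 exons), the alpha chain of Mac-1, was measured at 50.6, 50.5 and 49.9 FPKM in WT. In PGRN KO it was measured at 41.3, 42.4 and 45.1 FPKM. The WT libraries were within 1 FPKM of each other and above all PGRN KO libraries. Means were 50.3 ± 0.381 and 42.9 ± 1.95 FPKM, and the log2 difference of -0.22 ± 0.08 did not pass (95% interval -0.42 to -0.03, limma adjusted p = 0.0848). Without PGRN KO replicate 6 the difference was -0.26 with an adjusted p of 0.0067. A limit applies to the level of this gene. Of its 31-base words, 67.2% are shared with Gm49368, a gene model that overlaps it on the same strand and held 2 to 12 fragments, and the sources used here do not say how fragments matching both were treated.

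Itgb2 (ENSMUSG00000000290, chromosome 10, 77530252 to 77565708, plus strand, 16 exons), the beta chain shared by LFA-1 and Mac-1, was the most abundant of the 10 transcripts. It was measured at 662, 682 and 656 FPKM in WT and at 671, 654 and 628 FPKM in PGRN KO. The groups overlapped. The log2 difference was -0.03 ± 0.09, with a 95% interval of -0.25 to 0.18 and a limma adjusted p of 0.806, on 30769 to 37793 fragments per library. The sign of this difference turned with the scaling, being 0.02 when every library was given the same sum and 0.06 under quantile normalization.

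The beta chain and its alpha partners were next compared within each library, a ratio that does not depend on library scaling. Itgax, the alpha chain of complement receptor 4 (CD11c), and Itgad were included as the other alpha chains of the beta2 family. The ratio of Itgb2 to the summed FPKM of Itgal, Itgam, Itgax and Itgad was 8.05, 8.16 and 8.07 in WT. It was 10.02, 9.84 and 9.53 in PGRN KO. The groups did not overlap, and the mean ratio was 8.10 ± 0.0556 for WT and 9.80 ± 0.249 for PGRN KO (SD over 3 libraries each). The log2 difference was 0.28 against a pooled SD of 0.03, and an exact two-sided permutation test returned p = 0.1, which is the lowest possible value for 3 against 3 libraries. Leaving out each library in turn gave 0.26 to 0.30. Among the alpha chains of this family, Itgal made up 8.15% to 8.36% of the summed level in WT and 6.10% to 7.29% in PGRN KO. Itgam took 60.5% to 61.5% in WT and 61.7% to 68.5% in PGRN KO. Itgax took 30.1% to 31.3% in WT, and its share in PGRN KO, lowest at 25.4%, overlapped that range. Beta2 transcripts were thus in excess of the summed alpha transcripts in every library of both genotypes, with the reservation about the counting of Itgam given above.

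**Figure D2:**
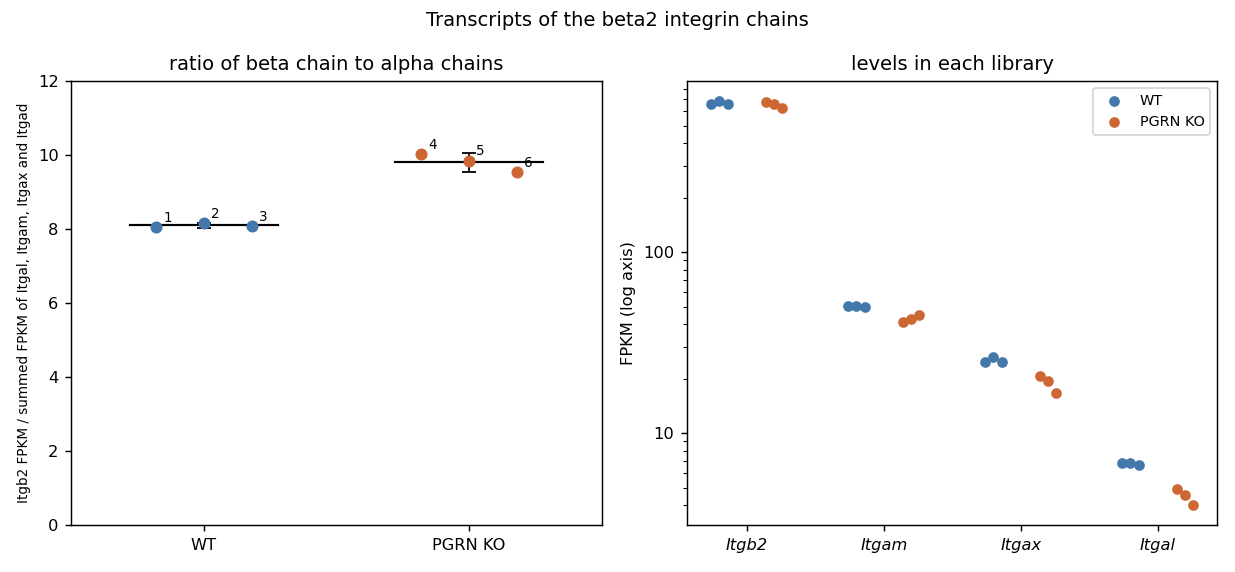
Left, ratio of Itgb2 to the summed FPKM of its alpha chains in each library (linear axis from 0), with the group mean as a long line, the SD as error bars and the replicate number beside each point. It lies between 8.05 and 8.16 in WT and between 9.53 and 10.02 in PGRN KO. Right, FPKM of the chains in each library on a log axis. Itgb2 overlaps between genotypes, and Itgam, Itgax and Itgal are lower in all PGRN KO libraries than in all WT libraries.

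Itgb7 (ENSMUSG00000001281, chromosome 15, 102215995 to 102231944, minus strand, 15 exons) stood on the other side of the comparison. It was measured at 43.7, 41.9 and 42.2 FPKM in WT and at 52.5, 51.9 and 77.6 FPKM in PGRN KO. All PGRN KO libraries were above all WT libraries, and replicate 6 was far above the rest. Means were 42.6 ± 0.983 and 60.7 ± 14.6 FPKM, with a log2 difference of 0.47 ± 0.16 (95% interval 0.09 to 0.86) that did not pass (limma adjusted p = 0.0729). Without replicate 6 the difference was smaller, 0.29, and its adjusted p was 0.0055. The adjusted p was also under 0.05 on the TPM scale (0.0195), under quantile normalization (0.0206) and after a loess correction of each library for gene length (0.0264).

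Itga4 (ENSMUSG00000027009, chromosome 2, 79255426 to 79333123, plus strand, 28 exons), the alpha partner of Itgb7 and of Itgb1, was scarce. Its levels were 2.42, 2.80 and 2.00 FPKM in WT and 2.87, 2.63 and 1.01 FPKM in PGRN KO. Replicates 4 and 5 lay within or just above the WT range, and replicate 6 below all other libraries. The log2 difference was -0.16 ± 0.25 (95% interval -0.75 to 0.44, limma adjusted p = 0.678). The sign was positive, 0.14, without replicate 6. The ratio of Itgb7 to Itga4 was accordingly 18.03 ± 3.05 in WT and 38.3 ± 33.4 in PGRN KO, where replicate 6 alone reached 76.8. The log2 difference of this ratio was 0.76 with all libraries (exact two-sided permutation p = 0.4) and 0.09 without replicate 6. B cells and mast cells can carry Itgb7, and the marker lists of both, given above, were higher in PGRN KO. All 6 B cell genes and 5 of 6 mast cell genes were separated and higher, against 48.8% of all tested genes separated in either direction. Only 3 of the B cell genes and 2 of the mast cell genes were above the limit for testing. The mast cell genes Fcer1a and Mcpt4 rested on 0 to 7 and 0 to 10 fragments. T cell markers summed to 2.32 to 2.73 FPKM in WT and 3.66 to 5.13 FPKM in PGRN KO. The part of these cells in the level of Itgb7 was not tested.

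Itgb1 (ENSMUSG00000025809, chromosome 8, 128685654 to 128733200, plus strand, 16 exons) was the next most abundant transcript after Itgb2. It was measured at 199, 209 and 189 FPKM in WT and at 197, 197 and 177 FPKM in PGRN KO. The groups overlapped, with a log2 difference of -0.07 ± 0.09 (95% interval -0.29 to 0.16, limma adjusted p = 0.630). Itga5 (ENSMUSG00000000555, chromosome 15, 103344286 to 103366763, minus strand, 30 exons), its partner in the fibronectin receptor, was measured at 76.6, 78.8 and 72.2 FPKM in WT and at 73.8, 72.3 and 71.5 FPKM in PGRN KO. These also overlapped, and the log2 difference was -0.06 ± 0.08 (95% interval -0.26 to 0.13, limma adjusted p = 0.603). For the fibronectin receptor pair, then, the intervals left room for differences of no more than 0.29 on the log2 scale in either chain.

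Itgav (ENSMUSG00000027087, chromosome 2, 83724397 to 83806916, plus strand, 30 exons) was measured at 64.3, 63.3 and 60.5 FPKM in WT and at 59.1, 56.2 and 30.3 FPKM in PGRN KO. The groups did not overlap, but replicate 6 was far below replicates 4 and 5. The log2 difference of -0.42 ± 0.24 did not pass (95% interval -0.99 to 0.15, limma adjusted p = 0.239). Without replicate 6 it was -0.12 with an adjusted p of 0.125. Itga6 (ENSMUSG00000027111, chromosome 2, 71745616 to 71858416, plus strand, 26 exons), the laminin receptor chain, had the lowest mean of the 10 in both groups. It was measured at 1.38, 1.12 and 1.02 FPKM in WT and at 1.94, 2.34 and 1.32 FPKM in PGRN KO, on 150 to 399 fragments per library. PGRN KO replicate 6 lay within the WT range and the other two above it. The log2 difference was 0.39 ± 0.15 (95% interval 0.03 to 0.75, limma adjusted p = 0.107), and it was 0.53 with an adjusted p of 0.0121 without replicate 6.

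Itgb1 was likewise compared with the summed FPKM of the alpha chains that can pair with it, Itga1 to Itga11 and Itgav. The ratio was 1.37 ± 0.0272 for WT and 1.49 ± 0.143 for PGRN KO (SD over 3 libraries each). The log2 difference of 0.12 gave an exact two-sided permutation p of 0.2, and the difference was 0.04 without PGRN KO replicate 6. Itgav, with a mean of 62.7 FPKM in WT, also pairs with other beta chains, and counting all of it here lowers the ratio. On these sums, beta1 transcripts were nearer in level to those of their partners than beta2 transcripts were, in every library of both genotypes.

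The order of levels in WT was Itgb2, Itgb1, Itga5, Itgav, Itgam, Itgb7, Icam1, Itgal, Itga4 and Itga6, from highest to lowest, and no neighbours in this order had overlapping libraries. By group mean, Itgb7 stood ahead of Itgav and Itgam in PGRN KO. Itgb7 was above Itgam in every PGRN KO library and below it in every WT library. Itgav, however, was above Itgb7 in replicates 4 and 5, and the order of these genes turned in replicate 6 alone. In PGRN KO, Itga5 and Itgb7, Itgb7 and Itgav, Itgav and Itgam, and Itga4 and Itga6 overlapped and cannot be ranked. These levels are scaled to gene length, with the place of Itgam uncertain because of the words it shares with Gm49368, and those of replicate 6 affected by its deviation with gene length.

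**Figure D3:**
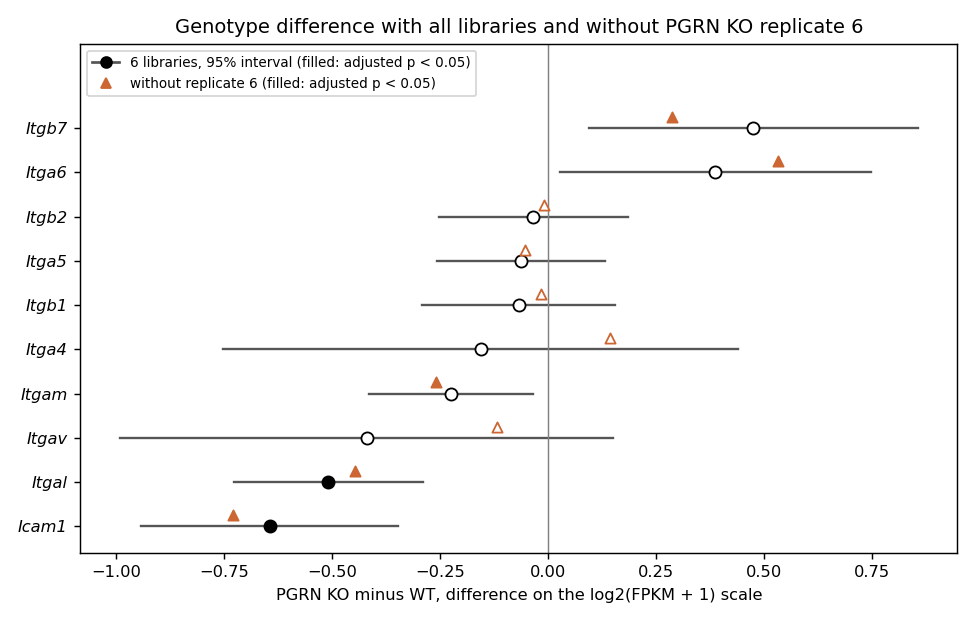
Difference between PGRN KO and WT for each of the 10 genes on the log2(FPKM + 1) scale. Circles give the fit of all 6 libraries with its 95% interval and triangles the fit without PGRN KO replicate 6, and filled symbols have a limma adjusted p under 0.05. Icam1 and Itgal lie furthest to the left, at -0.65 and -0.51, and 5 triangles are filled against 2 circles.

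PGRN KO replicate 6 bore on several of these genes. Relative to the mean of replicates 4 and 5 on the log2 scale, it was lower by a wide margin for the long genes Itgav (-0.91), Itga4 (-0.90) and Itga6 (-0.43). It was higher for the short gene Itgb7 (0.56), and for the other 6 genes it lay between -0.19 (Itgal) and 0.25 (Icam1). The deviation ran with the length of the gene model over all tested genes. When tested genes were split by length into 5 classes of equal size, the median was 0.38 in the shortest class (up to 1776 bases). It was 0.25 in the class of Itgb2 and Itgb7 (1777 to 3158 bases) and 0.07 in that of Itgb1 and Icam1 (3159 to 4657 bases). It was -0.10 in the class of Itgam, Itgal and Itga5 (4658 to 6950 bases) and -0.32 in that of Itga4, Itga6 and Itgav (6952 bases or more). In a fit without replicate 6, 5 of the 10 genes passed the threshold, against 41.3% of all tested genes. Icam1 (-0.73, adjusted p = 0.0037), Itgal (-0.45, 0.0030) and Itgam (-0.26, 0.0067) were then lower in PGRN KO, and Itgb7 (0.29, 0.0055) and Itga6 (0.53, 0.0121) were higher. With the loess correction for gene length 4 of 10 passed, against 31.7% of all tested genes, namely Icam1 (0.0077), Itgal (0.0046), Itgb7 (0.0264) and Itga6 (0.0102).

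**Figure D4:**
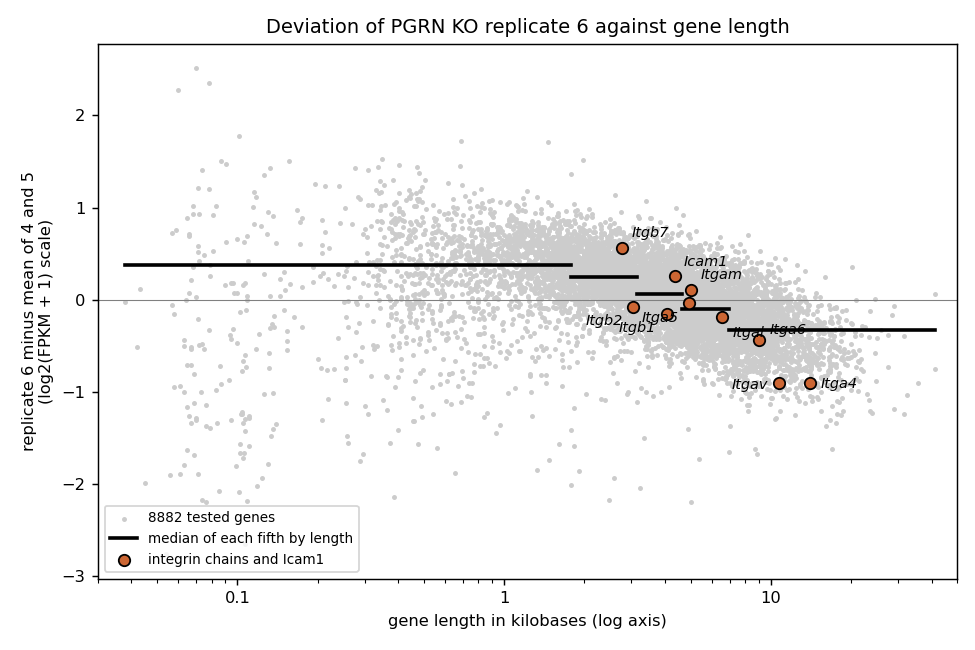
Deviation of PGRN KO replicate 6 from the mean of replicates 4 and 5 (log2(FPKM + 1) scale) against gene model length (kilobases, log axis). Grey points are the 8882 tested genes, black bars the median of each of 5 length classes, falling from 0.38 to -0.32, and orange points the 10 genes. Itgav and Itga4 lie lowest of the 10 and Itgb7 highest.

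Upstream sequences are shown for Icam1, the ligand that was lower in PGRN KO, for Itgam, an alpha chain of its receptors, and for Itgb7, which lay on the other side. Promoter entries from RefSeq (GRCm38.p6) were matched by symbol for 7 of the 10 genes, all but Itgal, Itgb2 and Itga6. The 250 bases before the RefSeq start are printed 5′ to 3′ on the strand of the gene, and capitals mark matches to 4 motifs on either strand. These were the PU.1 box GAGGAA of myeloid genes, the GAS element TTCNNNGAA bound by STAT factors, the GC box GGGCGG bound by Sp1, and the NF-kB consensus GGGRNNYYCC. In these letters R stands for A or G, Y for C or T and N for any base.
Icam1, chr9:21015690-21015939, plus strand: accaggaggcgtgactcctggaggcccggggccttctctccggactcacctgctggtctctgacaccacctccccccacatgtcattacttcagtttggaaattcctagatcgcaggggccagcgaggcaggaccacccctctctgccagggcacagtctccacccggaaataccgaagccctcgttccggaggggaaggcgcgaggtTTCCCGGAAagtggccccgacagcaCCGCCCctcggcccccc
Itgam, chr7:128062390-128062639, plus strand: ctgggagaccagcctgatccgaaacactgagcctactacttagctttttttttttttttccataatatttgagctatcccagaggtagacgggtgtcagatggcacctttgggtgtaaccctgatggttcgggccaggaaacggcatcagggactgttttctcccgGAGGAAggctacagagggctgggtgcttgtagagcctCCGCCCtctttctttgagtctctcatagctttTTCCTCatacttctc
Itgb7, chr15:102231936-102232185, minus strand: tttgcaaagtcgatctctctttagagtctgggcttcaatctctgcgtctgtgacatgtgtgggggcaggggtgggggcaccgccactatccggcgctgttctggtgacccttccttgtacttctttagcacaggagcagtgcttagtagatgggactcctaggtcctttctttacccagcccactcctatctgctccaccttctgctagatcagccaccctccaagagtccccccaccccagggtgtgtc
Icam1 held a GAS match starting at -42 and a GC box at -17 (reverse strand), counted from the start of transcription. Itgam held PU.1 boxes at -84 and, on the reverse strand, at -15, and a GC box at -47 (reverse strand). None of these matches overlapped another. No match lay in the window of Itgb7, and no match to the NF-kB consensus letters in any of the 3 windows. Sites that depart from these letters were not searched, so the windows cannot be said to lack NF-kB sites. The Icam1 window, for example, holds tggaaattcc, which departs from the consensus only in its opening letter and was not counted. Over 32851 mouse promoters, windows of the same length held the PU.1 box in 23.3%, the GAS element in 7.02%, the GC box in 32.7% and the NF-kB consensus in 7.25%. These are matches of letters, and no binding was measured.

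The other chains of the family were examined to place these genes. Of 17 further integrin chains, 5 were above the limit for testing, and the remaining 12 had a mean of at most 0.147 FPKM, that of the platelet chain Itga2b. Among the 5, Itgb3 passed as higher and Itgax as lower in PGRN KO, with 24.2% of all tested genes as the background. Itgb3, the beta chain that pairs with Itgav in a vitronectin receptor, was measured at 2.19, 2.17 and 2.44 FPKM in WT and at 5.08, 4.82 and 3.65 FPKM in PGRN KO. It rose from 2.27 ± 0.153 to 4.52 ± 0.763 FPKM (log2 difference 0.75, limma adjusted p = 0.0080), and the call held in all 15 alternatives that tested it. Itgax was measured at 24.7, 26.2 and 24.7 FPKM in WT and at 20.7, 19.5 and 16.7 FPKM in PGRN KO. It fell by 0.40 on the log2 scale (limma adjusted p = 0.0326), a call kept in 9 of 16 alternatives. It was lost on the TPM scale (0.161), under quantile normalization and without a filter. It was also lost without WT replicate 1 (0.118), 2 (0.125) or 3 (0.0967) or PGRN KO replicate 5 (0.0637). Itgb5, another partner of Itgav, had means of 10.4 and 11.2 FPKM (0.570). Itga9, which binds tenascin-C, had means of 3.18 and 3.43 FPKM (0.705, and 0.0498 without replicate 6, higher in PGRN KO). Itgb8, which activates TGF-beta together with Itgav, had means of 2.21 and 1.44 FPKM (0.190).

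Ligands of the integrins differed in both directions. Of 24 further ligand genes 10 were tested and 5 passed, against 24.2% of all tested genes. Of these, 3 were higher (10.4% of all tested genes) and 2 lower (13.8%) in PGRN KO, and the median log2 difference of the 10 was -0.03. The other 14 had a mean of at most 0.991 FPKM, Jam2 being the highest, and they include Icam4 and Icam5. Mfge8, which bridges dying cells to integrins of Itgav, rose from 11.2 ± 0.359 to 35.8 ± 7.33 FPKM (log2 difference 1.58, limma adjusted p = 0.00142). Icam2, a constitutive ligand of LFA-1, was measured at 3.26, 3.09 and 2.94 FPKM in WT and at 5.43, 4.49 and 5.38 FPKM in PGRN KO, and it rose by 0.57 on the log2 scale (adjusted p = 0.00914). Icam1 and Icam2 thus lay on opposite sides of the comparison. Vcam1, the ligand of Itga4 with Itgb1, rose from 1.43 to 2.13 FPKM (0.37, adjusted p = 0.0488), a call kept in 6 of 15 alternatives and lost on leaving out any single library other than replicate 6 (0.0680 to 0.159).

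Among matrix ligands, Fn1 (fibronectin) was measured at 267, 268 and 254 FPKM in WT and at 179, 179 and 97.0 FPKM in PGRN KO. It fell by 0.85 on the log2 scale (limma adjusted p = 0.0411, and 0.0010 without replicate 6). The call was kept in 10 of 16 alternatives and lost on leaving out any single WT library (0.106 to 0.127). Tnc (tenascin-C) fell from 2.81 to 1.44 FPKM (adjusted p = 0.0193), a call kept in 10 of 15 alternatives and lost likewise (0.0590 to 0.0793). The calls of Fn1 and Tnc were also lost on the TPM scale and without a filter, where no ligand passed as lower in PGRN KO. Spp1 (osteopontin), the ligand with the highest level, had means of 2953 and 2718 FPKM and did not pass (adjusted p = 0.5002). Thbs1 (thrombospondin-1) had means of 239 and 160 FPKM and did not pass either (0.0536). Without replicate 6 both were lower in PGRN KO (0.0253 for Spp1 and 0.0117 for Thbs1). Fn1 was lower, while the levels of its receptor chains Itga5 and Itgb1 overlapped between genotypes.

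Proteins that switch integrins on from within the cell, or tie them to actin, made up a list of 39 genes. Of these 31 were tested and 12 passed (38.7% against 24.2% of all tested genes), 4 higher and 8 lower in PGRN KO, with a median log2 difference of -0.13. Without replicate 6 there were 25 that passed, in a fit that called 41.3% of all tested genes. The direct activators of the beta tail did not pass, Tln1 (talin-1) having means of 101 and 104 FPKM (limma adjusted p = 0.875) and Fermt3 (kindlin-3) means of 66.4 and 61.1 FPKM (0.442). Without replicate 6, Tln1 was higher (0.0253) and Fermt3 lower (0.0192) in PGRN KO. Upstream of talin, Apbb1ip (RIAM), the effector of Rap1, fell from 24.4 to 17.5 FPKM (adjusted p = 0.0209, but 0.0965 without WT replicate 1 and 0.0932 without WT replicate 2). Rapgef2, an exchange factor for Rap1, fell from 29.3 to 19.0 FPKM (0.0488), a call kept in 7 of 16 alternatives and lost without WT replicate 1 (0.156), 2 (0.149) or 3 (0.0954) or PGRN KO replicate 5 (0.0730). Rap1b itself, at 354 and 290 FPKM, did not pass (0.0619), but was lower without replicate 6 (0.0159). At the adhesion site, Actn4 (alpha-actinin-4) fell from 57.6 ± 2.04 to 31.9 ± 1.23 FPKM (-0.83, adjusted p = 0.00162). Pxn (paxillin) fell from 26.1 ± 0.707 to 17.0 ± 0.706 FPKM (-0.59, adjusted p = 0.0045), and both calls held in all 16 alternatives.

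Other adhesion adaptors lay on the opposite side. Zyx (zyxin) rose from 53.0 ± 1.36 to 79.5 ± 7.63 FPKM (0.57, limma adjusted p = 0.00912), and Ptk2 (focal adhesion kinase) rose from 0.991 to 1.79 FPKM (0.49, adjusted p = 0.0106). Without WT replicate 1 the adjusted p was 0.0517 for Zyx and 0.0617 for Ptk2, and without WT replicate 3 it was 0.0512 for Ptk2. Skap2 (-0.46, 0.0102), Actn1 (-0.43, 0.0335), Adam17 (-0.39, 0.0217) and Ptk2b (-0.31, 0.0349) also fell on the log2 scale, and Cd47 (0.39, 0.0233) and Parvg (0.34, 0.0312) also rose. All 6 of these calls were lost without WT replicate 1 (adjusted p 0.0652 to 0.145) or WT replicate 2 (0.0557 to 0.129), and those other than Skap2 also without WT replicate 3 (0.0680 to 0.115). Without PGRN KO replicate 4 the calls of Adam17 (0.0546), Ptk2b (0.0668) and Cd47 (0.0628) were lost, and without replicate 5 those of Actn1 (0.0576), Ptk2b (0.0677) and Parvg (0.0806). Calls also depended on scaling. On the TPM scale 3 adaptors passed as lower in PGRN KO, Actn4 and Pxn among them, and 3 as higher, against 8 and 4 with the deposited scaling. Flna (filamin A) had means of 132 and 141 FPKM (0.793, and 0.0080 without replicate 6, higher in PGRN KO). Vcl (vinculin), chosen after its values were seen, was measured at 14.1, 14.9 and 13.1 FPKM in WT and at 26.1, 25.4 and 10.6 FPKM in PGRN KO, so that replicate 6 went against the other two. Its adjusted p was 0.346 with all libraries and 0.00072 without replicate 6. Ilk, the integrin-linked kinase, was listed at 0 to 7 fragments per library and was not tested. Of its 31-base words, 66.0% are shared with Taf10 on the opposite strand, and without knowledge of strand use its level is uncertain.

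**Figure D5:**
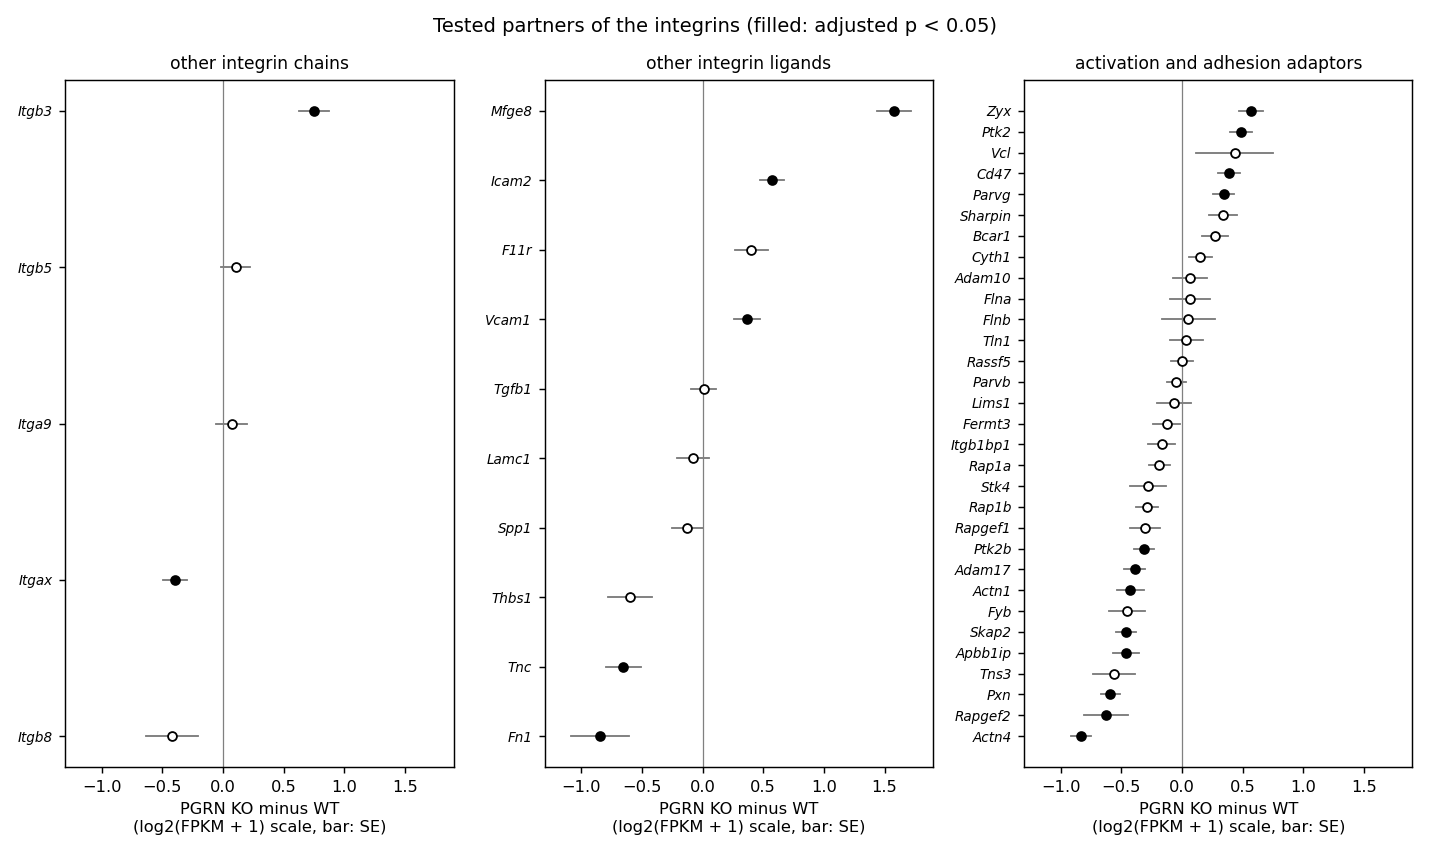
Difference between PGRN KO and WT on the log2(FPKM + 1) scale for the tested genes of the other integrin chains (5), other ligands (10) and activation and adhesion adaptors (31). Bars give the SE and filled points have a limma adjusted p under 0.05. Mfge8 lies furthest to the right at 1.58, and Fn1 and Actn4 lie furthest to the left at -0.85 and -0.83.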

How the data were processed

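RNA sequencing values of 6 libraries, 3 WT and 3 PGRN KO, were analysed. Per the labels and the methods of the study, the authors selected polyadenylated RNA, sequenced paired ends, aligned reads to mm10/GRCm38 and counted fragments per gene. The submitters' processing notes name CASAVA, HISAT2 2.0.5, featureCounts 1.5.0-p3 and DESeq2 1.20.0, whereas the methods name HTSeq for counting. No source used here says whether strand was used in counting. The authors deposited FPKM, scaled by gene length and library size. Fragments were recovered from the deposited FPKM and gene length, whole within 0.001 of a step for 100% of values. Of the gene identifiers, 99.77% were found in GENCODE M21, and 98.26% of these had the same coordinates.

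The comparison of genotypes used limma 3.58.1 (R 4.3.3) on log2(FPKM + 1) for genes whose mean reached 1 FPKM, with a mean-variance trend, no covariates and Benjamini-Hochberg adjustment (threshold 0.05, two-sided). Chain ratios were compared by exact permutation of the 6 libraries in Python 3.11.15 with NumPy 2.4.6. The code was tested on simulated data. The 10 genes, the gene lists and the tests were chosen with earlier results of these data known. From each list the genes past the threshold were named, or the 6 with the largest change where more passed, and the 2 with the highest level; called adaptors beyond these, and untested or comparison genes, were named after their values were seen. Alternatives were a pseudocount of 0.1, no filter, a mean FPKM of at least 5, a TPM scale, quantile normalization, sample quality weights, no trend, voom on recovered fragments, a loess length correction (span 0.5) and leaving out each library. The length correction without replicate 6 was chosen after seeing the data.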

Additional observations from a re-analysis of the deposited data

How the results depend on the processing

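The number of genes past the threshold depended on single libraries and on weighting. Leaving out each library in turn, it was 713 to 3668 over all tested genes (2151 with all libraries), 0 to 5 for the 10 genes, 1 to 3 for the other chains, 2 to 7 for the ligands and 2 to 25 for the adaptors. WT replicate 1 gave the lowest count over all genes and PGRN KO replicate 6 the highest. None of the 10 genes passed in limma without WT replicate 1 or 2, where 4 and 2 of them had an unadjusted p under 0.05. The share of all tested genes at that unadjusted limit was not counted. Sample quality weights, which gave replicate 6 a weight of 0.0899, led to 4225 genes, 5 of the 10 genes, 8 ligands and 25 adaptors. The loess length correction gave 4 of the 10 genes, and together with leaving out replicate 6 it gave 3664 genes, 5 of the 10 genes and 24 adaptors. Without a filter there were 1366 genes, 1 other chain and 2 ligands, and a limit of 5 FPKM on the mean left 1 other chain and 3 ligands. On the TPM scale there were 1 other chain, 3 ligands and 6 adaptors, and quantile normalization gave 1 other chain. The TPM scale also turned the balance, with 922 genes higher and 608 lower in PGRN KO (60.3% higher, against 42.8% with the deposited scaling). The cause of these changes was not tested, apart from the smaller number of genes or libraries that some alternatives hold by construction.

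Among the 10 genes the direction reversed only where the difference was small. Itga4 was at 0.0574 with the length correction, 0.20 with it and without replicate 6, 0.12 with sample weights and -0.33 to 0.14 on leaving out each library. Itgb2 was at 0.0197 on the TPM scale and at 0.0641 under quantile normalization. With the length correction and without replicate 6, Itgb2 was at 0.0145 and Itgb1 at 0.0123. Chain ratios kept their direction when each library was left out, although without replicate 6 the difference fell to 0.04 for Itgb1 and to 0.09 for Itgb7 over Itga4. No paired analysis was possible because WT and PGRN KO share no replicate numbers. With 3 libraries a group, the 95% intervals of Itga4 and Itgav allow differences of over 0.5 on the log2 scale in the negative direction, and at 150 to 399 fragments the level of Itga6 is the least precisely counted.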
